A study of Homo sapiens with 8 samples.

Results

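Krüppel-like factors (KLFs) are zinc finger transcription factors, and the genes described here are 10 of them, KLF2, KLF3, KLF4, KLF5, KLF6, KLF7, KLF9, KLF10, KLF11 and KLF13. They were taken by name from the 20136 protein-coding genes of the GENCODE annotation lifted to hg19, and all 10 were found. For each gene, peaks were gathered within 2 kb of its transcription start site (TSS), in the gene body, and in the 150 kb to either side. The gene with both flanks is called its locus. The marks were H3K23su, succinylation of lysine 23 of histone H3, and H3K27ac, acetylation of lysine 27, a mark of active promoters and enhancers. Both were mapped by CUT&Tag, in which an antibody tethers a transposase that cuts and tags DNA where the modification lies. The cells were HCT15, an established human colorectal cancer line, in its parental form (HCT15-Pa), which the labels give as treated with the solvent DMSO, and in a form resistant to the pyrimidine analog 5-fluorouracil (HCT15-FR), which was kept in 20 μg/ml of the drug and moved to medium without it before experiments. Each mark was profiled in 2 libraries of each line, 8 libraries in all, and the comparison asks where the resistant line carries more or less of each mark. HCT15-FR is a single selected line, and nothing in the labels says that the replicates were separate cultures.

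All KLF proteins share 3 zinc fingers at the carboxyl end that bind GC-rich and CACCC-type sites, and they differ in the amino-terminal part that recruits partners. KLF2, KLF4, KLF5, KLF6 and KLF7 are known mostly as activators, some of which also repress. KLF3 recruits the corepressor CtBP, and KLF9, KLF10, KLF11 and KLF13 recruit the corepressor SIN3A. In the colon, KLF5 is known from the dividing cells of the crypt and KLF4 from the differentiated cells above them.

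The deposited files list peaks, so the measures are whether a peak is present, how many bases it covers, and its score, the −log10 P value of the peak caller. They hold no read counts, and a missing peak was not detectable at the authors' threshold rather than absent. The H3K23su lists held 65364 to 68365 peaks and the H3K27ac lists 70600 to 76676. Peaks covered more of the genome in HCT15-FR, at 40.0 and 39.4 Mb against 33.5 and 33.0 Mb for H3K23su and at 46.3 and 46.6 Mb against 39.5 and 38.8 Mb for H3K27ac, which is 1.19 times as much for either mark. Because this covers the whole genome, its part in a longer peak length at any 1 gene was not tested, and lengths scaled to equal library totals are given beside the largest differences. Of 10 colon epithelial genes looked up, CDH1, EPCAM, HNF4A, KRT8, KRT18, LGR5 and VIL1 had TSS peaks of both marks in all libraries, while CDX1 had TSS peaks of both marks in HCT15-FR alone, as did KRT20 for H3K27ac, and CDX2 had H3K27ac TSS peaks in all 4 libraries and an H3K23su one in HCT15-FR replicate 2 alone. PTPRC, CD3E, COL1A2 and ALB, genes of leukocytes, T cells, fibroblasts and hepatocytes, had no TSS peak, while COL1A1 had H3K27ac TSS peaks in all 4 libraries and H3K23su ones in 3, and GFAP had an H3K23su peak in 1. Inside their gene bodies, PTPRC and CD3E had peaks of both marks in each HCT15-FR library but none in HCT15-Pa, of 251 and 265 bp for H3K23su and 1236 and 1111 bp for H3K27ac at PTPRC and of 1102 and 957 bp and 768 and 938 bp at CD3E.

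The KLF promoters carried both marks in both lines. A TSS peak of H3K27ac was present in all 4 libraries at 10 of 10 KLF genes, against 59.0% of all genes. A TSS peak of H3K23su was present in all 4 libraries at 9 of 10, against 54.7% of all genes. The exception was KLF11, which had no H3K23su TSS peak in HCT15-Pa replicate 1. Among 15 other KLF and SP genes looked up, 8 had an H3K23su and 9 an H3K27ac TSS peak in all 4 libraries, and KLF8, KLF14, KLF17 and SP9 had no TSS peak of either mark in any library. At KLF3, KLF6, KLF7, KLF10, KLF11 and KLF13, every H3K27ac library covered more of the TSS window than every H3K23su library. That is 6 of 10 KLF genes against 10.8% of genes with a TSS peak of either mark, and the reverse held at 0 of 10 against 1.65%. The H3K27ac peaks were called in broad mode, and the part of this in their length was not tested.

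Between the lines, the length of the TSS peaks differed in both directions. For H3K23su, both HCT15-FR libraries lay above both HCT15-Pa libraries at 4 of 10 genes (KLF2, KLF7, KLF11 and KLF13), against 43.1% of all genes with a TSS peak, and below them at 2 of 10 (KLF4 and KLF5), against 8.36%. For H3K27ac, HCT15-FR lay above at 3 of 10 (KLF4, KLF5 and KLF6), against 31.4%, and below at 2 of 10 (KLF7 and KLF10), against 12.8%. For 2 libraries against 2, the smallest p of a two-sided exact permutation test is 0.333, so no single gene could pass a threshold, and each difference below is described by whether the libraries overlap.

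**Figure D1:**
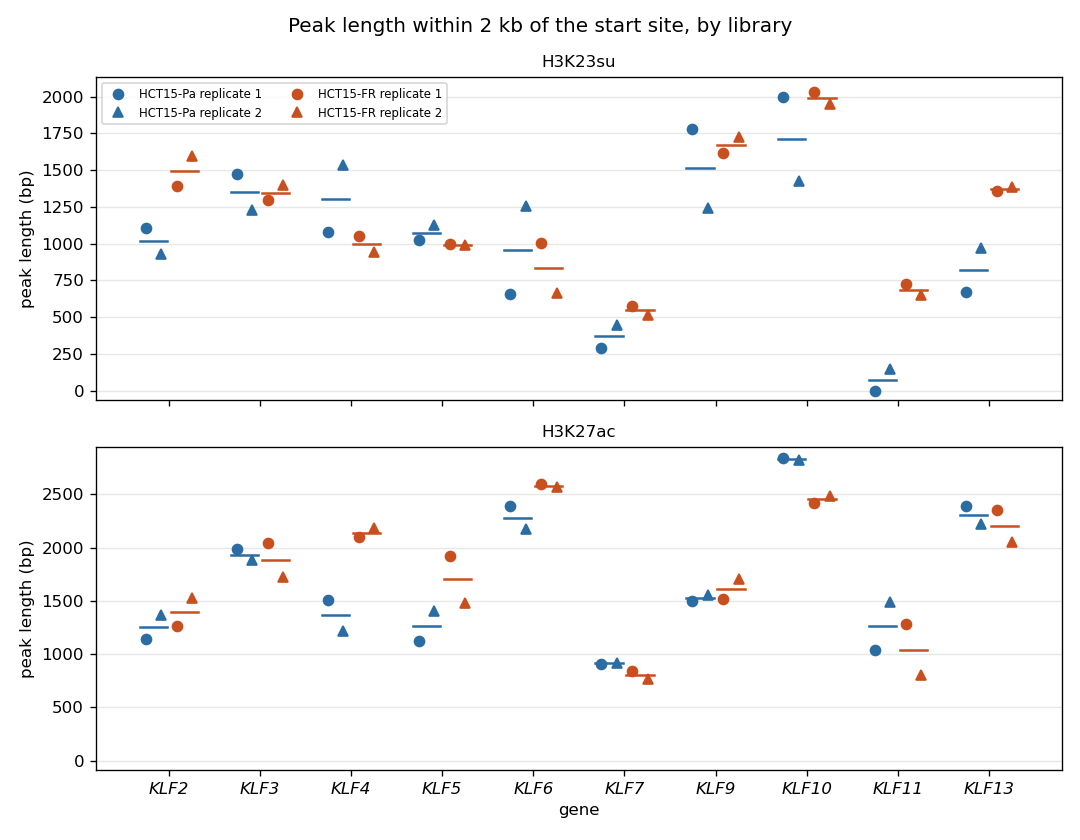
Bases covered by peaks within 2 kb of the TSS of each KLF gene (y axis, bp), for H3K23su (top) and H3K27ac (bottom). Each symbol is 1 library and each bar the mean of 2. The HCT15-FR libraries sit above HCT15-Pa for H3K23su at KLF11 and KLF13 and for H3K27ac at KLF4, and below HCT15-Pa for H3K27ac at KLF10.

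Over whole loci, peak length was greater in HCT15-FR at most KLF genes, as it was genome-wide. For H3K23su the HCT15-FR libraries did not overlap HCT15-Pa and were higher at 7 of 10 loci, against 61.0% of genes with a peak in the locus. They were lower at 1 of 10 (KLF9), against 12.0%. For H3K27ac they were higher at 9 of 10, against 60.3%, and lower at 0 of 10, against 13.2%. After scaling to equal library totals, 2 KLF loci were higher for H3K23su (KLF6 and KLF7), against 33.1% of genes, and 3 lower (KLF4, KLF5 and KLF9), against 27.3%. For H3K27ac, 4 were higher after scaling (KLF2, KLF4, KLF6 and KLF7), against 28.0%, and 4 lower (KLF3, KLF5, KLF10 and KLF13), against 35.3%. Peak length was at least 1.5 times as great in HCT15-FR, without overlap, at KLF6 and KLF7 for H3K23su (2 of 10, against 15.8% of genes) and at KLF4 and KLF6 for H3K27ac (2 of 10, against 13.0%). KLF6 was the one KLF gene in both sets.

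Summed over the 10 loci, H3K23su peaks covered 90.1 ± 4.28 kb in HCT15-Pa and 106 ± 5.84 kb in HCT15-FR (SD, n = 2 each), and H3K27ac peaks 111 ± 2.19 kb and 136 ± 0.176 kb. Both differences are larger than the spread between replicates. The ratio of HCT15-FR to HCT15-Pa was 1.17 for H3K23su and 1.23 for H3K27ac, beside 1.19 genome-wide for each. After scaling to equal library totals, the difference of HCT15-FR minus HCT15-Pa was -1.81 kb for H3K23su and 4.54 kb for H3K27ac. In the flanks, which make up most of each locus, H3K27ac peaks covered 79.3 ± 3.0 kb in HCT15-Pa and 103 ± 1.13 kb in HCT15-FR, a ratio of 1.30, while the TSS windows had a ratio of 1.05 and the gene bodies also 1.05. For H3K23su the ratio was 1.21 in the flanks, 1.17 in the TSS windows and 1.01 in the gene bodies.

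**Figure D2:**
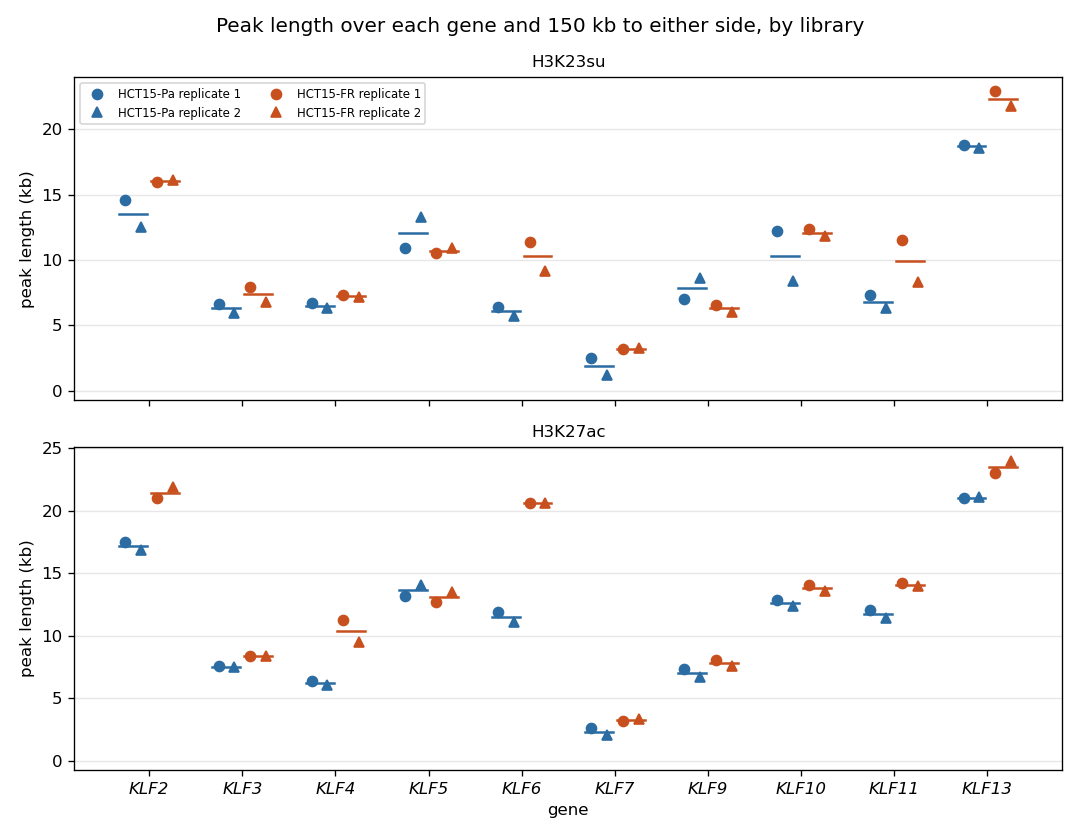
Bases covered by peaks over each KLF gene and the 150 kb to either side (y axis, kb), for H3K23su (top) and H3K27ac (bottom). Each symbol is 1 library and each bar the mean of 2. At KLF6 the H3K27ac libraries are at 20.6 kb in both HCT15-FR replicates and at 11.9 and 11.1 kb in HCT15-Pa, while at KLF9 the H3K23su libraries of HCT15-FR lie below those of HCT15-Pa.

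To describe where peaks came and went, overlapping peaks of the 4 libraries of a mark were merged into regions. A region with a peak in each HCT15-FR library but none in HCT15-Pa is called FR-only, the opposite case Pa-only, and one with a peak in all 4 shared. The KLF loci held 292 H3K23su regions, of which 18 were FR-only, 14 Pa-only and 91 shared, and 297 H3K27ac regions, of which 29 were FR-only, 10 Pa-only and 110 shared. A further 125 H3K23su and 102 H3K27ac regions rested on 1 library. Leaving out 1 library relaxes these definitions, and the counts then came to 30 to 47 FR-only and 18 to 53 Pa-only regions for H3K23su, and to 35 to 56 and 15 to 46 for H3K27ac. At least 1 FR-only region was found at 8 of 10 loci for H3K23su, against 72.5% of all genes, and at 10 of 10 for H3K27ac, against 77.7%. At least 1 Pa-only region was found at 9 of 10 for H3K23su, against 59.4%, and at 6 of 10 for H3K27ac, against 59.6%. FR-only regions outnumbered Pa-only ones at 6 loci for H3K23su (background 50.1%) and at 8 for H3K27ac (57.5%). Pa-only regions outnumbered FR-only ones at KLF5 and KLF9 for H3K23su (2 of 10, against 23.7%) and at KLF5 and KLF11 for H3K27ac (2 of 10, against 19.7%). These orders rest on few regions. Under at least 1 of the alternative settings tried, leaving out a library included, the order reversed at 7 of the 8 loci with unequal H3K23su counts and at 7 of 10 loci for H3K27ac. It reversed under none of them for H3K23su at KLF13 and for H3K27ac at KLF3, KLF4 and KLF9, but equal counts were not taken as reversals. FR-only and Pa-only counts became equal at KLF13 with 50 kb flanks (1 and 1) and without HCT15-Pa replicate 1 (7 and 7). They also became equal at KLF3 with the stronger 50% (1 and 1) and 50 kb flanks (0 and 0), and at KLF9 without HCT15-Pa replicate 1 (2 and 2).

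Few of these regions touched the promoter of a KLF gene. Within 2 kb of the TSS, an FR-only H3K23su region was found at KLF2 alone (1 of 10, against 3.64% of genes) and a Pa-only one at KLF3 and KLF4 (2 of 10, against 2.10%). For H3K27ac, 0 of 10 KLF genes had an FR-only region there, against 2.66%, and 0 of 10 a Pa-only one, against 2.61%. Regions in flanks need not belong to the KLF gene. At the KLF11 locus, an FR-only H3K23su region lay 59 bp from the GRHL1 TSS and a Pa-only H3K27ac region 358 bp from the CYS1 TSS. The KLF gene had the nearest protein-coding TSS for 12 of 18 regions of H3K23su found in HCT15-FR alone and 10 of 14 found in HCT15-Pa alone, and for 23 of 29 and 5 of 10 such regions of H3K27ac.

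**Figure D3:**
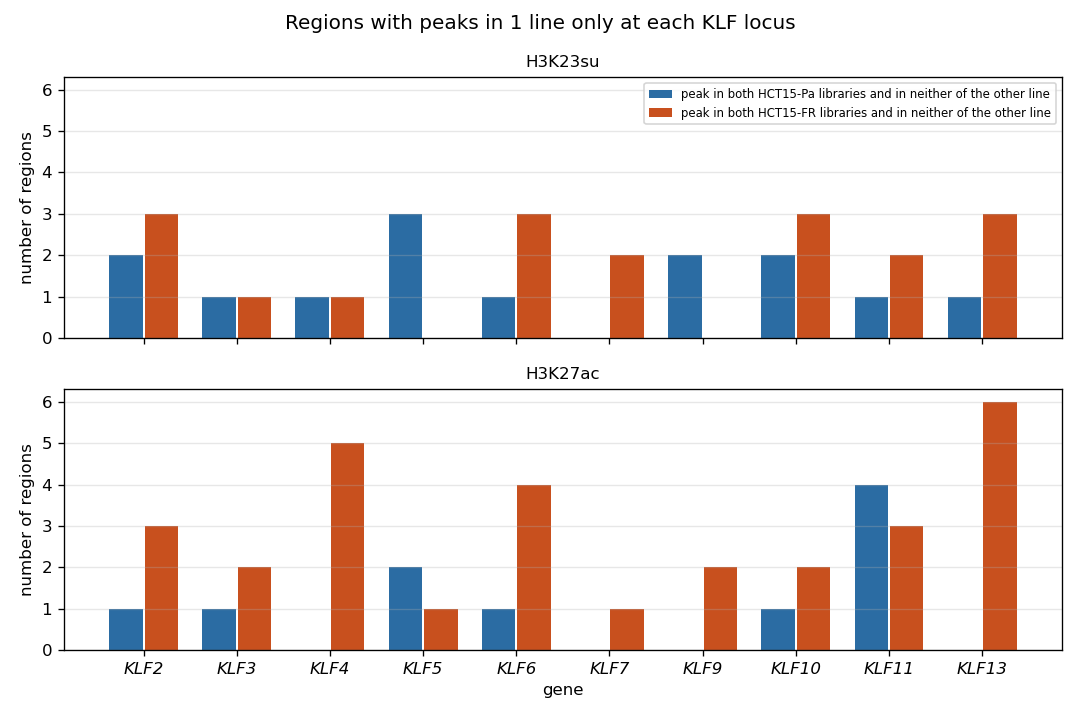
Number of FR-only and Pa-only regions (y axis) at each KLF locus for H3K23su (top) and H3K27ac (bottom). KLF13 has 6 and KLF4 has 5 FR-only H3K27ac regions, and KLF5 has 3 Pa-only H3K23su regions and 0 FR-only ones, but with the stronger 50% of each list the order reverses at KLF13 (2 FR-only, 3 Pa-only) and at KLF5 (2 FR-only, 0 Pa-only).

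The classes of both marks were also set against each other. H3K27ac was FR-only too at 8 of the 18 FR-only places of H3K23su (44.4%, beside 35.8% genome-wide), shared at 3 (16.7%, beside 17.1%), and Pa-only at 0 (beside 0.401%). At the 14 Pa-only places of H3K23su, H3K27ac was Pa-only at 1 (7.14%, beside 19.8% genome-wide) and shared at 4 (28.6%, beside 11.0%), and 5 had no H3K27ac region at all (35.7%, beside 30.8%). Shared H3K27ac covered 81 of the 91 places where H3K23su was shared (89.0%, beside 80.3%). No test was made of these shares.

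Sequences of H3K23su regions with peaks in 1 line alone are printed below, as examples of places where the lines differ in this mark at KLF loci. For each class they are the 3 whose weaker peak ranked highest in its own list, outside untranslated regions and leaving out the KLF10 locus, whose sequences are not printed here. In each class 1 region of the KLF10 locus ranked above them, an FR-only one 113 kb upstream and a Pa-only one 127 kb downstream of its TSS. The weaker peaks of the printed FR-only regions stood at percentiles 73.3, 67.8 and 55.0 of their lists, in the order printed. Those of the printed Pa-only regions stood at percentiles 62.0, 57.5 and 50.8. Each sequence is the 300 bases about the region's midpoint on the plus strand of hg19. Capitals mark exact matches, on either strand, to 5 short motifs: CCACNCCC for KLF, TGACTCA for AP-1, GGAATG for TEAD, TGTTTAC for FOX and AGATAA for GATA. The FR-only regions lie 146 kb upstream of KLF7 (window chr2:208176199-208176498, intergenic), 138 kb downstream of KLF2 in an intron of EPS15L1 (chr19:16573727-16574026), and 103 kb upstream of KLF13 (chr15:31515998-31516297, intergenic). The capitals are 1 AP-1 match in the first, 1 GATA and 1 AP-1 match in the second, and 1 TEAD and 1 KLF match in the third.
KLF7 FR-only region: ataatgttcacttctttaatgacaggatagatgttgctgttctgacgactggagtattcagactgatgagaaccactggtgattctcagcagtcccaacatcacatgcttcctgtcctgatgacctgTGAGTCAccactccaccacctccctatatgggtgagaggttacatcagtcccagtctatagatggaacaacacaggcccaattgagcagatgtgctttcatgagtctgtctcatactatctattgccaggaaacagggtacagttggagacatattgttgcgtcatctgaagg
KLF2 FR-only region: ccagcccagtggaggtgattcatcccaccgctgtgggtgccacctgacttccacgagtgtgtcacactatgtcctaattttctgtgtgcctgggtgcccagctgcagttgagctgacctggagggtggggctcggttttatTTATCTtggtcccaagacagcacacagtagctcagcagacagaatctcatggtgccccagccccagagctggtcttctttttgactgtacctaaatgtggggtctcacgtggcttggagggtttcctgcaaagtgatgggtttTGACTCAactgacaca
KLF13 FR-only region: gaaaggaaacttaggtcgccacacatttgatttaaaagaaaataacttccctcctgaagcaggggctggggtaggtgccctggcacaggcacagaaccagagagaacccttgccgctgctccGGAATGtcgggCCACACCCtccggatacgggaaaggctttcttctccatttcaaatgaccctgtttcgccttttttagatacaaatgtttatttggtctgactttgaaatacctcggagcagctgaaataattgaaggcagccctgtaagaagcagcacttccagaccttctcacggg

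The Pa-only regions lie 74.3 kb upstream of KLF9 (window chr9:73103736-73104035, intergenic), 119 kb downstream of KLF11 in an intron of RRM2 (chr2:10302135-10302434), and 117 kb downstream of KLF6 (chr10:3710667-3710966, intergenic). None of the 5 motifs was found in these windows, so they hold no capitals.
KLF9 Pa-only region: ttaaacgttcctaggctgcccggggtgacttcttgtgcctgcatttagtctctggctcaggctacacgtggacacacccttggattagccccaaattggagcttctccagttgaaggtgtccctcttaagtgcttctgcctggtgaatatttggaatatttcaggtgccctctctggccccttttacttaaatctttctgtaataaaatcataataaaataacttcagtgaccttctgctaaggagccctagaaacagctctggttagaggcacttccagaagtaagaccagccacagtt
KLF11 Pa-only region: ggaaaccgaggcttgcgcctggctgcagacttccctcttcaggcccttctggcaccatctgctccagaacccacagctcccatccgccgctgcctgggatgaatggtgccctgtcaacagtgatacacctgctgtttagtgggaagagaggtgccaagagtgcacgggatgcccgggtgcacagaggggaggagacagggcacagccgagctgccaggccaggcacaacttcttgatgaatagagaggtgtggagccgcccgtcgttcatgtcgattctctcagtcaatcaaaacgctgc
KLF6 Pa-only region: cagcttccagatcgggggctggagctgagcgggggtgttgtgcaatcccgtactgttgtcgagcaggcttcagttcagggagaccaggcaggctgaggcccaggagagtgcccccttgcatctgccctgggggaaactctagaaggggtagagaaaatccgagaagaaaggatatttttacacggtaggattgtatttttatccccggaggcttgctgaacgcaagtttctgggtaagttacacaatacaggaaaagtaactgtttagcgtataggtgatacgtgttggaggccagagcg

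Over all FR-only H3K23su regions of the KLF loci, 5 of 18 windows held the AP-1 motif (27.8%), beside 16.8% of FR-only regions and 10.3% of all H3K23su regions genome-wide. Of the Pa-only windows 1 of 14 held it (7.14%, beside 9.08% of Pa-only regions genome-wide). The KLF motif was in 1 of 18 FR-only, 1 of 14 Pa-only and 16 of 91 shared H3K23su windows (5.56%, 7.14% and 17.6%), beside 12.6%, 15% and 17.6% of the same classes and 14.9% of all H3K23su regions genome-wide. In FR-only H3K27ac windows of the KLF loci, 5 of 29 held the AP-1 motif (17.2%, beside 19.6% of such regions genome-wide), 7 of 29 TEAD (24.1%, beside 18.6%), 5 of 29 GATA (17.2%, beside 20.0%), 4 of 29 FOX (13.8%, beside 10.5%) and 1 of 29 KLF (3.45%, beside 11.6%). In the 18 FR-only H3K23su windows TEAD was in 3 (16.7%, beside 18.7% of such regions genome-wide), GATA in 4 (22.2%, beside 17.8%) and FOX in 2 (11.1%, beside 9.05%). These windows differ in base composition, with a mean GC content of 50.9% in the FR-only, 57.7% in the Pa-only and 57.1% in the shared H3K23su windows. A match is a run of letters and not a shown binding site.

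KLF6, a broadly expressed KLF with tumour-suppressing activity in several tissues (chr10:3818188-3827473, minus strand), was longer in both marks in HCT15-FR. H3K27ac peaks over its locus covered 11.9 and 11.1 kb in HCT15-Pa and 20.6 kb in each HCT15-FR library, a difference of 9.14 kb and a ratio of 1.80 (1.52 after scaling). H3K23su peaks covered 6.44 and 5.75 kb in HCT15-Pa and 11.4 and 9.19 kb in HCT15-FR, a ratio of 1.69 (1.41 after scaling). The libraries of the lines overlap in neither mark. The locus holds no other protein-coding TSS.

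The promoter of KLF6 differed less between the lines than its surroundings. Its H3K27ac TSS peaks covered 2387 and 2170 bp in HCT15-Pa and 2596 and 2565 bp in HCT15-FR, a ratio of 1.13, and 0.955 after scaling, when the libraries overlapped. Their top scores were 19.1 and 21.0 in HCT15-Pa and 28.7 and 24.7 in HCT15-FR, the highest of the 10 KLF genes in all 4 libraries. Within their own lists these scores stood at percentiles 99.1 and 99.3 in HCT15-Pa and 99.6 and 99.3 in HCT15-FR. The H3K23su TSS peaks, at 657 and 1259 bp against 1005 and 665 bp, overlapped between the lines.

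Of the 9.14 kb of added H3K27ac at KLF6, 5.14 kb came from shared regions that were wider in HCT15-FR and 3.86 kb from 4 FR-only regions. The shared region 21.0 kb upstream (chr10:3847577-3849246) was covered over 412 and 509 bp in HCT15-Pa and 1655 and 1659 bp in HCT15-FR. The one 67.7 kb upstream (chr10:3893601-3896573) was covered over 1372 and 1873 bp against 2752 and 2887 bp, and the one 122 kb upstream (chr10:3948233-3950039) over 898 and 653 bp against 1660 and 1807 bp.

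One of the FR-only H3K27ac regions (chr10:3817395-3818255) lay at the 3′ end of KLF6, covered over 861 and 704 bp. For H3K23su, KLF6 had 3 FR-only regions, 30.0 kb downstream, 45.8 kb upstream and 114 kb upstream. Their weaker peaks stood at percentiles 40.4, 21.0 and 11.7 of their lists. With the stronger 50% of each list KLF6 had 0 FR-only and 1 Pa-only H3K23su region. Its 1 Pa-only H3K23su region, whose sequence is given above, was the only region of the KLF loci that was Pa-only in both marks, with H3K23su scores of 4.37 and 4.63 and H3K27ac scores of 6.36 and 7.18.

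**Figure D4:**
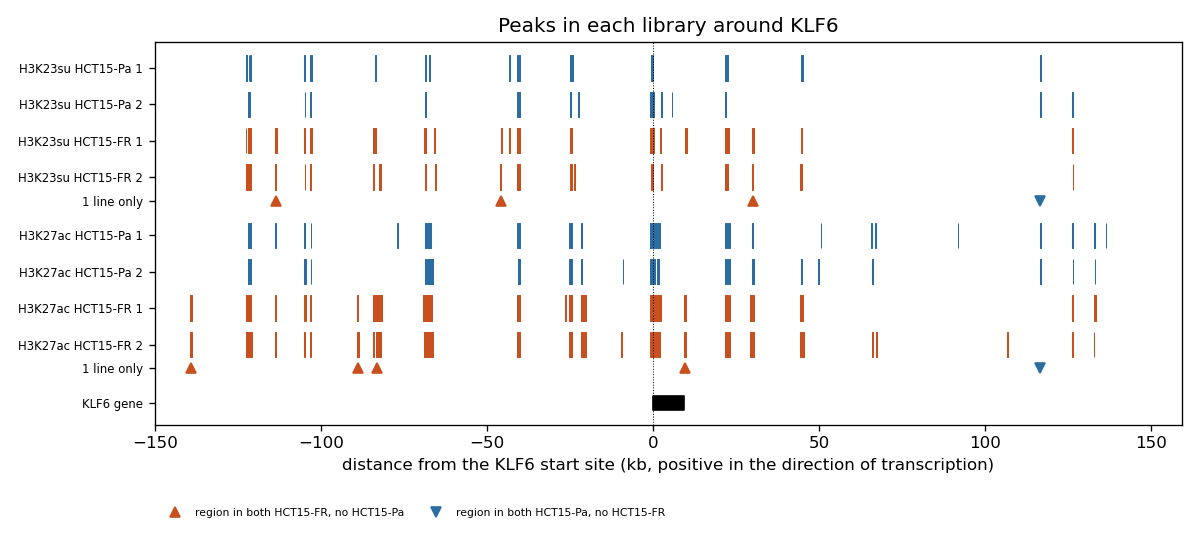
Peaks in each of the 8 libraries around KLF6, by distance from its TSS (x axis, kb, positive in the direction of transcription), with triangles at FR-only and Pa-only regions and a black bar for the gene. The H3K27ac blocks at 21.0, 67.7 and 122 kb upstream are wider in HCT15-FR, and the Pa-only triangles of both marks stand 117 kb downstream.

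KLF4, a factor of differentiated gut epithelium that is also used in reprogramming to pluripotency (chr9:110247133-110252763, minus strand), was longer in HCT15-FR for H3K27ac. Its locus covered 6.38 and 6.09 kb in HCT15-Pa and 11.3 and 9.48 kb in HCT15-FR, a ratio of 1.67 (1.41 after scaling), and it has no other protein-coding TSS. At the TSS, H3K27ac covered 1511 and 1220 bp in HCT15-Pa and 2100 and 2181 bp in HCT15-FR, a ratio of 1.57 (1.32 after scaling). The top score of these wider peaks was 8.51 and 5.54 in HCT15-FR and 9.08 and 11.4 in HCT15-Pa, so the score was not higher where the peaks were longer.

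H3K23su at the KLF4 TSS went the other way in length, with 1081 and 1532 bp in HCT15-Pa and 1054 and 945 bp in HCT15-FR. A Pa-only H3K23su region lay 0.345 kb upstream of the TSS (chr9:110252118-110252671), with low scores of 3.81 and 3.44, overlapping a shared H3K27ac region. It covered 275 and 430 bp in HCT15-Pa, a mean difference of -0.352 kb. This is more than the whole TSS difference of -307 bp, so the shorter H3K23su length in HCT15-FR rests on this region. The H3K23su scores at the TSS were 5.80 and 5.81 in HCT15-Pa and 9.60 and 7.76 in HCT15-FR, again opposite to the length. KLF4 had 5 FR-only H3K27ac regions and 0 Pa-only ones, and the one 51.2 kb downstream was FR-only for H3K23su as well.

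KLF5, the KLF of dividing crypt cells (chr13:73629114-73651679, plus strand), did not share the longer peaks of most other loci. H3K23su covered 10.9 and 13.3 kb in HCT15-Pa and 10.5 and 10.9 kb in HCT15-FR, and H3K27ac 13.2 and 14.1 kb against 12.7 and 13.5 kb. The libraries of the lines overlapped in both marks, with ratios of 0.886 and 0.959, where the median gene had 1.21 and 1.16. After scaling, both HCT15-FR libraries were below both HCT15-Pa libraries in either mark, with ratios of 0.742 and 0.808. Within the gene body, H3K23su covered 1980 ± 284 bp in HCT15-Pa and 1420 ± 51.6 bp in HCT15-FR (SD, n = 2), without overlap.

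KLF5 had 3 Pa-only H3K23su regions, the most of any KLF gene, and 0 FR-only ones. With the stronger 50% of each list it had 0 Pa-only and 2 FR-only regions, with 50% cover 1 and 3, and with 50 kb flanks 0 of either. The 3 lay 58.6 kb upstream (chr13:73574321-73574792) and 140 kb upstream, both in introns of PIBF1, and 111 kb downstream. A Pa-only H3K27ac region (chr13:73646345-73646846) lay in an intron of KLF5 itself, 13.5 kb downstream of the TSS. The largest change of a shared H3K27ac region was 105 kb upstream, covered over 1173 and 1647 bp in HCT15-Pa and 191 and 705 bp in HCT15-FR. At the KLF5 TSS, H3K27ac covered 1121 and 1403 bp in HCT15-Pa and 1923 and 1479 bp in HCT15-FR.

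The chromosome of KLF5 stood apart in the same direction. On chromosome 13, 9.14% of H3K23su regions were Pa-only and 5.56% FR-only, beside 5.01% and 7.95% genome-wide, and for H3K27ac 8.12% were Pa-only and 6.43% FR-only, beside 4.53% and 9.08%. A difference at KLF5 itself and one of the whole chromosome cannot be told apart in these lists.

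**Figure D5:**
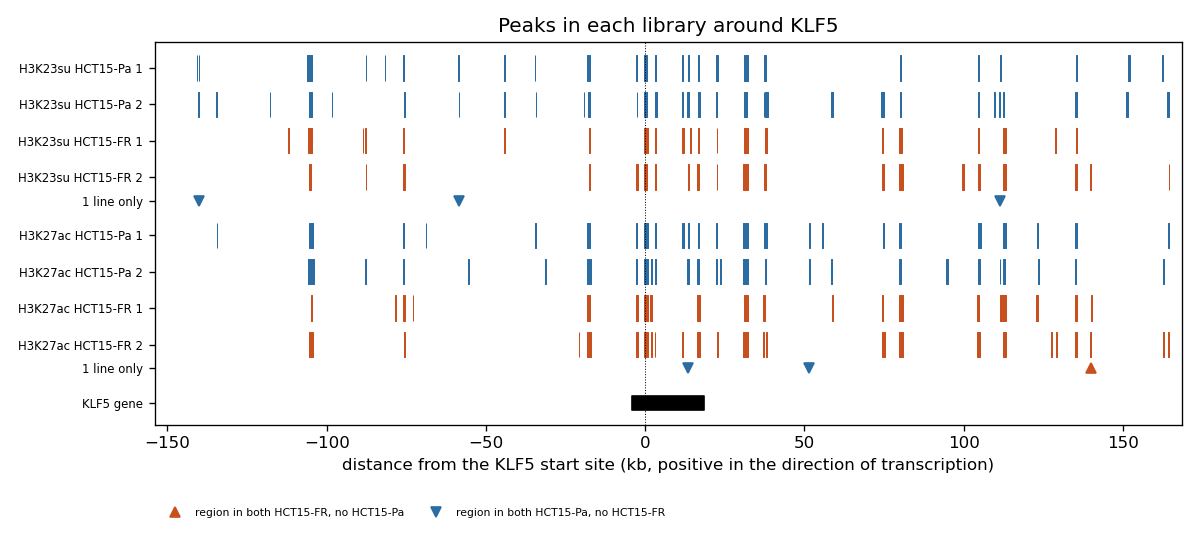
Peaks in each of the 8 libraries around KLF5, by distance from its TSS (x axis, kb, positive in the direction of transcription), with triangles at FR-only and Pa-only regions and a black bar for the gene. The Pa-only triangles for H3K23su stand 140 and 58.6 kb upstream and 111 kb downstream. Of the 44 H3K23su and 38 H3K27ac regions of the locus, 12 of each mark are shared by all 4 libraries.

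KLF2, known from quiescent T cells and from endothelium under flow (chr19:16435637-16439496, plus strand), had longer peaks in HCT15-FR over its locus in both marks. H3K27ac covered 17.5 and 16.9 kb in HCT15-Pa and 21.0 and 21.9 kb in HCT15-FR, and H3K23su 14.6 and 12.5 kb against 16.0 and 16.1 kb, a difference of 2.50 kb that was 1.47 kb without HCT15-Pa replicate 2. After scaling, the ratios were 1.05 and 0.994. The H3K23su TSS peaks covered 1106 and 933 bp in HCT15-Pa and 1390 and 1598 bp in HCT15-FR, a mean difference of 474 bp. An FR-only region 1.62 kb downstream of the TSS (chr19:16436888-16437628), with low scores of 3.47 and 3.58, covered 448 and 741 bp of this in HCT15-FR. Its mean of 0.595 kb was more than the whole difference, so the longer TSS peaks rest on this region. Another region, 133 kb downstream in EPS15L1, was narrower in HCT15-FR in both marks, and its H3K23su peaks (chr19:16567587-16570057) covered 2471 and 1803 bp in HCT15-Pa and 664 and 922 bp in HCT15-FR. The FR-only region of the same gene printed above, 138 kb downstream, was FR-only in both marks. The locus holds 3 other protein-coding TSSs.

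KLF7, known from developing neurons (chr2:207938861-208038580, minus strand), had the least peak length of the 10 loci in both marks. Its locus covered 2.50 and 1.21 kb of H3K23su in HCT15-Pa and 3.18 and 3.24 kb in HCT15-FR, a ratio of 1.73 (1.45 after scaling), and 2.58 and 2.05 kb of H3K27ac against 3.21 and 3.33 kb. The 2 FR-only H3K23su regions, 104 and 146 kb upstream, supplied 1.05 kb of the difference of 1.35 kb, and the one 104 kb upstream (chr2:208133651-208134725) overlapped an FR-only H3K27ac region. Without HCT15-Pa replicate 2 that difference was 0.710 kb. With flanks of 50 kb, which leave out these regions, HCT15-FR minus HCT15-Pa was -0.239 kb for H3K23su and -0.106 kb for H3K27ac. At the TSS, H3K23su covered 292 and 449 bp in HCT15-Pa and 579 and 514 bp in HCT15-FR, while H3K27ac covered 907 and 917 bp against 842 and 770 bp. The H3K27ac top scores, at 12.3 and 11.7 in HCT15-Pa and 16.8 and 18.0 in HCT15-FR, were higher where those peaks were shorter.

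KLF3, the CtBP-recruiting repressor (chr4:38665818-38703138, plus strand), differed little at its promoter before scaling. H3K23su covered 1476 and 1226 bp of the TSS window in HCT15-Pa and 1295 and 1399 bp in HCT15-FR, and H3K27ac 1985 and 1880 bp against 2042 and 1722 bp, with overlap in both. After scaling, HCT15-FR was lower without overlap in both marks, with ratios of 0.836 for H3K23su and 0.821 for H3K27ac. A Pa-only H3K23su region lay 0.755 kb upstream of the TSS (chr4:38664852-38665278), overlapping a shared H3K27ac region. A region 93.3 kb upstream (chr4:38572064-38573039) was FR-only in both marks, with H3K27ac scores of 7.77 and 6.46.

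Of the SIN3A-recruiting factors, KLF13 (chr15:31619038-31727868, plus strand), known from T lymphocytes, had the most peak length. H3K23su covered 18.8 and 18.6 kb of its locus in HCT15-Pa and 22.9 and 21.8 kb in HCT15-FR, and H3K27ac covered 21.1 ± 0.0863 kb against 23.5 ± 0.743 kb (SD, n = 2 each), without overlap. Scaled ratios were 1.00 and 0.939. It had 6 FR-only H3K27ac regions, the most of any KLF gene, and 0 Pa-only ones, but 2 and 3 with the stronger 50% of each list and 7 and 8 without HCT15-Pa replicate 2. Of the 6, 3 lay in its own introns, 60.9, 78.8 and 107 kb downstream of the TSS. The regions 103 kb upstream and 107 kb downstream were FR-only in both marks. At the TSS, H3K23su covered 669 and 968 bp in HCT15-Pa and 1357 and 1388 bp in HCT15-FR (ratio 1.68, and 1.40 after scaling), while H3K27ac covered 2392 and 2224 bp against 2352 and 2050 bp.

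KLF11 (chr2:10182976-10194963, plus strand), a TGF-β-inducible repressor, was the one KLF gene whose H3K23su promoter peak was not found in all libraries. The peak lay 0.594 kb downstream of the TSS (chr2:10183903-10184638) and covered 0 and 146 bp in HCT15-Pa and 727 and 649 bp in HCT15-FR. H3K27ac covered 1039 and 1486 bp of the TSS window in HCT15-Pa and 1284 and 802 bp in HCT15-FR, with overlap. Over the locus H3K23su covered 7.31 and 6.32 kb against 11.5 and 8.32 kb, a difference of 3.10 kb that was 1.5 kb without HCT15-FR replicate 1 and 4.70 kb without HCT15-FR replicate 2. H3K27ac covered 12.1 and 11.4 kb against 14.2 and 14.0 kb, a difference of 2.34 kb without overlap. None of its FR-only regions had KLF11 as the nearest protein-coding TSS, and the locus holds 3 others. With only the peaks nearest to its TSS, HCT15-FR minus HCT15-Pa was -0.375 kb for H3K27ac and 0.587 kb for H3K23su.

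KLF9 (chr9:72999520-73029573, minus strand), a target of glucocorticoid and thyroid hormone receptors, was the one locus with shorter H3K23su peaks in both HCT15-FR libraries. They covered 7.01 and 8.66 kb in HCT15-Pa and 6.56 and 6.03 kb in HCT15-FR, a ratio of 0.804 (0.673 after scaling). The difference was -0.711 kb without HCT15-Pa replicate 2 and -2.37 kb without HCT15-Pa replicate 1. H3K27ac covered 7.34 and 6.68 kb in HCT15-Pa and 8.02 and 7.57 kb in HCT15-FR, a ratio of 1.11 (0.938 after scaling), and the difference of 0.785 kb was 0.457 kb without HCT15-Pa replicate 2. Of the H3K23su difference of -1.54 kb, -0.851 kb came from 2 Pa-only regions and 0.164 kb from shared ones. Another -0.851 kb came from the remaining 19 regions, of which 14 rested on 1 library. One Pa-only region is the sequence printed above, with scores of 5.66 and 4.73 and no H3K27ac region over it, and the other lay in an intron of KLF9 (chr9:73004752-73005097). The TSS peak lengths of both marks overlapped between the lines before scaling. After scaling, HCT15-FR was lower without overlap for H3K27ac (ratio 0.891), while H3K23su still overlapped (0.928).

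KLF10 (chr8:103661012-103667953, minus strand), also TGF-β-inducible, had the longest TSS peaks of the 10 genes in H3K27ac on average, and they were shorter in HCT15-FR. They covered 2839 and 2820 bp in HCT15-Pa and 2417 and 2487 bp in HCT15-FR, a ratio of 0.867 (0.730 after scaling). Their top scores were also lower, at 6.47 and 4.87 against 7.78 and 7.01. H3K23su covered 1998 and 1428 bp of the same window in HCT15-Pa and 2031 and 1952 bp in HCT15-FR. Over the locus H3K27ac covered 12.9 and 12.4 kb in HCT15-Pa and 14.1 and 13.6 kb in HCT15-FR, and H3K23su 12.2 and 8.42 kb against 12.4 and 11.8 kb. The region 113 kb upstream was FR-only in both marks, and of the 3 FR-only H3K23su regions none had KLF10 as the nearest protein-coding TSS.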

How the data were processed

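H3K23su and H3K27ac were profiled by CUT&Tag in HCT15-Pa and HCT15-FR cells, with 2 libraries for each mark and line. Per the labels and the study's methods, the authors aligned reads to hg19 with Bowtie2, filtered them with SAMtools and called peaks in each library separately with MACS2, in broad mode for H3K27ac. Each deposited list holds the peak positions and the −log10 P value as the authors' peak caller wrote it, with no read counts, so depth is described here by peak numbers and covered length. Spike-in DNA was added to the libraries, but whether the lists were scaled by it is not given in the sources used here.

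Genes and TSSs came from GENCODE lifted to GRCh37 (canonical transcripts where given), and no peak lay past a chromosome end of GRCh37. Within a mark, overlapping or touching peaks were joined into regions across its 4 libraries, and 1 bp sufficed as overlap. Peak length was summed within 2 kb of the TSS, in the body, and in 150 kb flanks. The two-sided exact permutation test of 2 libraries against 2 has 0.333 as its smallest p. Background shares are over all protein-coding genes, and over those with any peak in the window for lengths. Scaled lengths were divided by each library's covered total. All 10 genes are named. For each, regions were ranked by the percentile of the weaker peak in its own list, and sequences were chosen by that rank outside chromosome 8 and untranslated regions. Locus maps show the gene with the most Pa-only H3K23su regions (KLF5) and, of 4 genes tied for the most FR-only ones (KLF2, KLF6, KLF10 and KLF13), KLF6, chosen after its values were seen. The genes, lists and motifs were chosen with earlier results of these data known. As alternatives, lists were reduced to their stronger 50%, to equal lengths or to a common minimum score. Regions were required to be 50% covered or joined over 500 bp, flanks were set to 50 kb, and peaks were limited to those nearest the gene. Any annotated TSS, scaling, pairing by replicate number and leaving out each library were also tried. Region classes and lengths were checked on simulated data. A marker gene and some sequences that were looked up are not reported here. Python 3.11.15, NumPy 2.4.6, pandas 2.3.3 and matplotlib 3.10.9 were used.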

Additional observations from a re-analysis of the deposited data

Results flagged for a closer look

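At 4 genes, before scaling, every HCT15-FR library lay on one side of the HCT15-Pa libraries for H3K23su and on the other side for H3K27ac. The difference between the marks was not tested. At the KLF4 TSS, HCT15-FR minus HCT15-Pa was -307 bp for H3K23su and 775 bp for H3K27ac. At the KLF5 TSS it was -82.0 bp for H3K23su and 439 bp for H3K27ac. At the KLF7 TSS it was 176 bp for H3K23su and -106 bp for H3K27ac. Over the KLF9 locus it was -1.54 kb for H3K23su (-0.711 kb without HCT15-Pa replicate 2 and -2.37 kb without HCT15-Pa replicate 1) and 0.785 kb for H3K27ac (0.457 kb without HCT15-Pa replicate 2, and -0.478 kb after scaling to equal library totals). Of these genes, only KLF4 kept opposite sides without overlap after scaling (ratios of 0.640 for H3K23su and 1.32 for H3K27ac). Its H3K23su side rests on a low-scoring Pa-only region, which had a difference of -0.352 kb before scaling. The scaled libraries overlapped for H3K27ac at the KLF5 TSS (1.14) and the KLF9 locus (0.938), and for H3K23su at the KLF7 TSS (1.23).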

How the results depend on the processing

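Of 126 recomputed totals under an alternative, 82 stayed within the limits set (1.5 times for a count, 1 SD for a length), 43 moved beyond them and 1 reversed. Of 660 recomputed values for single genes, with lengths judged by sign alone, 183 moved and 17 reversed. The causes were not tested. With the stronger 50% of each list, H3K23su gave 11 FR-only and 6 Pa-only regions and TSS peaks in all 4 libraries at 5 genes, and H3K27ac gave 18 FR-only regions, a summed difference (HCT15-FR minus HCT15-Pa) of 18.1 kb, 1 lower locus, and differences of -2.16 kb at KLF2 and 2.38 kb at KLF5. Equal list lengths gave an H3K27ac sum of 23.3 kb, and 50% cover gave 30 FR-only H3K23su regions. With 50 kb flanks, which hold fewer peaks, H3K23su gave 6 FR-only and 5 Pa-only regions, a sum of 4.57 kb, 4 higher and 2 lower loci, and differences of -0.271 kb at KLF4 and -0.239 kb at KLF7. H3K27ac then gave 10 and 5 regions, 8.05 kb, 5 higher and 3 lower loci, and differences of -0.00950 kb at KLF3, -0.106 kb at KLF7 and -0.524 kb at KLF11. With the nearest TSS, H3K27ac gave 5 Pa-only regions, 20.4 kb, 1 lower locus and -0.375 kb at KLF11.

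Scaled by library total, the H3K23su sum was -1.81 kb, with 2 higher and 3 lower loci and differences of -0.0948 kb at KLF2, -0.147 kb at KLF3, -0.511 kb at KLF4 and -0.173 kb at KLF10. The H3K27ac sum was 4.54 kb, with 4 higher and 4 lower loci and differences of -0.494 kb at KLF3, -0.478 kb at KLF9, -1.07 kb at KLF10 and -1.42 kb at KLF13. At KLF6 the difference stayed positive in both marks under all alternatives run.

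Same-numbered libraries did not deviate together gene by gene (correlation 0.00303 for H3K23su and 0.00711 for H3K27ac over 20136 genes). A correlation over genes does not show a shift common to all genes. Whether same-numbered libraries were prepared together is not known. With the replicate block, HCT15-FR was lower in both pairs at 2 loci for H3K23su and 1 for H3K27ac, and the sign-flip test over 2 pairs has 0.5 as its smallest p. Leaving out each library gave 30 to 47 FR-only and 18 to 53 Pa-only H3K23su regions, 35 to 56 and 15 to 46 for H3K27ac, 1 to 2 lower loci for H3K23su and 0 to 1 for H3K27ac, and a KLF10 H3K23su difference of -0.117 to 3.71 kb, the lowest without HCT15-Pa replicate 2.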
